A study of Saccharomyces cerevisiae with 75 samples.

Results

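The genes described here are 30 genes for proteins of the small (40S) ribosomal subunit of the budding yeast Saccharomyces cerevisiae, each measured with 3 probes on an array made to follow splicing. They were chosen by name and by probe number only: every gene whose symbol is RPS followed by a digit and that has 18 spots on the array (3 probes of 6 spots), except 10 genes that form 5 pairs of copies. No measured ratio entered the choice. The 30 genes are 30 of 53 small-subunit symbols and of 982 named genes on the array. They hold 90 probes. Both copies of 12 duplicated genes are among them, of which 11 are described by name (RPS0, RPS4, RPS6, RPS10, RPS16, RPS18, RPS21, RPS23, RPS24, RPS27 and RPS30), and the other 6 genes are RPS8B, RPS13, RPS22B, RPS25B, RPS26B and RPS29B.

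Ribosomal protein genes make up a small share of yeast genes but a large share of the transcripts that are spliced in a growing cell, because many of them carry an intron and are transcribed at a high rate. Most exist as a pair of near-identical paralogs, A and B, left from a duplication of the genome. Npl3, Gbp2 and Hrb1 are the SR-like proteins of budding yeast, RNA-binding proteins with arginine-rich domains that act in splicing and in the export of mRNA from the nucleus. Upf1 (gene NAM7) is a helicase of nonsense-mediated decay, the pathway that degrades transcripts with an early stop codon, among them many unspliced transcripts that reach the cytoplasm.

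Each array compared total RNA of 2 strains, labelled with Cy5 and Cy3, and the values are log2 ratios of the first named strain over the other. The series asks how single and double deletions of the SR-like proteins, and of a decay factor, alter splicing. The Dnpl3 strain, which lacks NPL3, was set against its matched wild type at 16 °C for 30 min (1 pair of RNA extracts), at 30 °C with no shift (7 pairs), and at 37 °C for 15 min (2 pairs), 30 min (6 pairs) and 45 min (1 pair). The Dgbp2, Dhrb1 and Dgbp2Dhrb1 strains were each set against a matched wild type at 30 °C (1, 1 and 2 pairs) and at 37 °C for 30 min (2 pairs each). The Dnpl3Dupf1 strain was set against wild type at 30 °C and at 37 °C for 15 min, against Dnpl3 at both, and against Dupf1 at 30 °C, with 1 pair each. The Dupf1 strain was set against wild type at 37 °C for 15 and 30 min and against Dnpl3 at 30 °C, and Dnpl3 against Dupf1 at 37 °C for 15 min, with 1 pair each. A strain labelled Dupf1+Dnpl3 was set against Dnpl3 at 37 °C for 30 min in 1 pair, and the label does not say how it differs from Dnpl3Dupf1. The splicing mutant prp2-1 was set against the mutants prp5-1 and prp8-1 at 37 °C for 30 min, with 1 array each. Strain backgrounds and clones were not known here. An extract pair is usually 2 arrays with the dyes swapped, averaged here to 1 value and counted as 1 replicate. The labels name no separate cultures for the pairs within a group, and the p-values therefore rest on the spread between extract pairs. That spread, and with it each SE, was pooled over the pairs of all deletion strains as labelled and is not that of a single group. A comparison with 1 pair borrows it from the others. The RNA is of whole cultures, where a change in the number of cells that make a transcript and a change in RNA per cell cannot be told apart.

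The 3 probes of each gene were kept apart. The array's print order put the first and the second probe of a gene next to each other and the third elsewhere, and the sources used here do not state which stretch of the gene (exon, intron or exon junction) each probe matches. They are therefore called the first, the second and the third printed probe. The main measure of a gene is its second printed probe minus the third, a difference of 2 log2 ratios, called the probe contrast below. A positive value means that the second probe's ratio of mutant over wild type exceeded that of the third, so that a change in the total level of the gene drops out as far as it moves both probes alike. The same contrast was available for 230 genes, which give the background for every count. Paralog sequences are near-identical in coding regions, so the probes of A and B may each take up signal from the other copy, which was not tested.

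Some facts of the whole series bear on these values. NPL3 itself was at -2.19 to -1.59 in the 6 pairs at 37 °C for 30 min, and NAM7 at -4.24 to -2.23 in the 4 pairs that set Dupf1 or Dnpl3Dupf1 against wild type. At 30 °C, NPL3 was below -1.6 in 6 of the 7 Dnpl3 pairs and at 1.47 in replicate 3, the only pair of that group above 0. Over all probes replicate 3 correlated with the other 6 pairs at -0.664 to -0.448, while the other 6 correlated with each other at 0.408 to 0.713. Its label was kept. The counts of Dnpl3 over wild type at 30 °C are given as labelled, without this pair and with its sign turned. The other comparisons share the fit with this pair, and they are given with it as labelled unless stated. The 2 arrays of a pair ran against each other (r below 0 over probes) in 10 of 36 dye-swapped pairs, among them 0 of the 5 of Dnpl3 over wild type at 37 °C for 30 min and 2 of the 7 at 30 °C. The array titles of the deletion strains begin with 6 different numbers, whose meaning the labels do not give. Arrays that share such a number are called a round here (A to F), and each round holds only some of the strain pairs. Genes tied to mating type also differed between the strains of many pairs, though the labels give no mating type: of genes expressed in alpha cells, 3 of the 4 listed (MF(ALPHA)1, MF(ALPHA)2 and STE3) were on the array, and of genes expressed in a cells, 2 of the 6 listed (MFA1 and MFA2). Their values stand beside the results below, and their part in the results was not tested.

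In Dnpl3 cells shifted to 37 °C for 30 min, the probe contrast of these ribosomal genes rose almost throughout. Of the 30 genes, 28 rose against wild type and 0 fell, with 52.2% of the 230 genes called higher and 1.3% called lower (limma, adjusted p under 0.05 over all 230 genes). The median of the 30 was 0.899 and that of the 230 genes 0.435. All 30 means were above 0, and 24 genes were above 0 in each pair that measured them. By extract pair, the median of the 30 genes was 0.997, 1.18, 0.876, 1.08, 0.493 and 1.03, so each of the 6 pairs showed a positive shift and replicate 5 the smallest.

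The gene with the largest contrast was RPS0A (YGR214W), whose protein sits beside that of RPS21 on the 40S subunit and is needed for maturation of the small-subunit rRNA. Its contrast was 1.09 at the lowest, 2.11 at the median and 3.34 at the highest pair. All 6 pairs lay above 1, and the mean was 2.09 ± 0.36 on the log2 scale (SE, n = 6, limma adjusted p = 4.58e-05). RPS0B (YLR048W), the other copy of the gene, ran between 1.14 and 2.04 with a median of 1.47, and its mean was 1.55 ± 0.29 (n = 6, limma adjusted p = 0.000134). Both copies were thus high in each pair, and the ranges of the copies overlapped.

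RPS21B (YJL136C), the partner of RPS0 in rRNA maturation, had 0.81, 1.61 and 3.18 as its lowest, median and highest contrast. Its mean was 1.77 ± 0.35 (n = 6, limma adjusted p = 0.00022). The highest value, in replicate 6, stood well over the 5 others, which ended at 1.94. RPS10B (YMR230W), for a small-subunit protein, ran from 0.83 to 2.77 around a median of 1.496, with a mean of 1.73 ± 0.26 (n = 6, limma adjusted p = 1.92e-05). RPS18B (YML026C) ran from 1.26 to 2.18 around 1.66, with a mean of 1.68 ± 0.32 (n = 6, limma adjusted p = 0.000186). None of these 3 B copies had a pair near or below 0.

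A middle group followed. RPS22B, whose intron holds a small nucleolar RNA, had a mean contrast of 1.51, RPS24B 1.38, RPS8B 1.19, RPS30B 1.14, RPS16B 1.07, RPS27B 1.06, RPS24A 1.00, RPS10A 0.99 and RPS13 0.99. Lower means, all past the test, belonged to RPS23B (0.81) and RPS23A (0.76), for a protein of the decoding centre, and to RPS18A (0.74), RPS30A (0.74), RPS26B (0.69) and RPS6B (0.69), the last for a protein that is phosphorylated downstream of the growth regulator TOR. The same holds for RPS29B (0.61), RPS25B (0.58), whose protein is not essential, RPS6A (0.56), RPS27A (0.54) and RPS16A (0.51). Neighbours in this order differed by less than the larger of their standard errors.

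The smallest contrasts were those of the RPS4 copies and of RPS21A. RPS4B (YHR203C) had -0.25, 0.25 and 1.29 as its lowest, median and highest pair, and its mean of 0.36 did not pass the test (n = 6, limma adjusted p = 0.0599). RPS21A (YKR057W) ran from -0.19 to 0.85 with a median of 0.38, and its mean of 0.37 ± 0.12 passed the test (n = 6, limma adjusted p = 0.0116). RPS4A (YJR145C) ran from -0.06 to 1.65 with a median of 0.16, and its mean of 0.45 passed it as well (n = 6, limma adjusted p = 0.0291). In each of these 3 genes at least 1 pair was below 0, and the highest pair of both RPS4 copies was replicate 2.

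**Figure D1:**
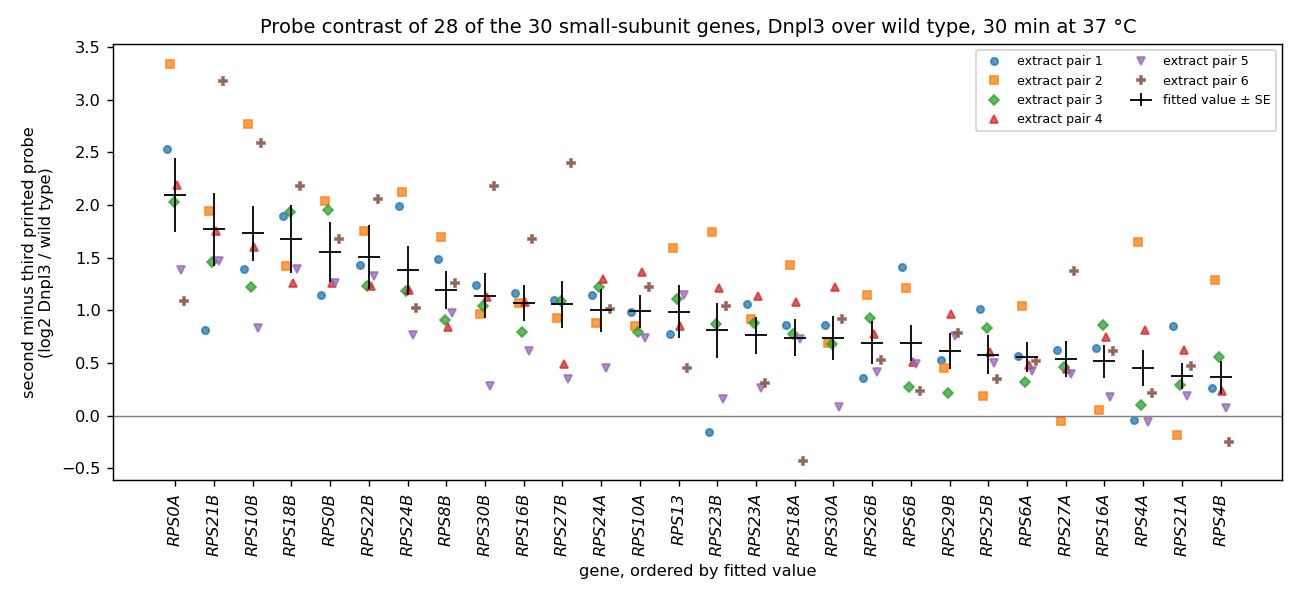
Probe contrast (second minus the third printed probe, difference of log2 ratios, Dnpl3 over wild type, 37 °C for 30 min) of 28 of the 30 genes in order of their mean. Coloured points are the 6 extract pairs, and black dashes with bars the limma mean and its SE. The means run from 2.09 in RPS0A to 0.36 in RPS4B, with RPS21B (1.77) and RPS10B (1.73) next to the highest.

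The count held for these samples but not under every account of the array rounds. Without replicates 2 and 6, the pairs with the highest STE3 (1.64 and 1.48, against -0.17 to 0.98 in the others), 25 genes rose and the median was 0.848. Over the 6 pairs MF(ALPHA)1 ran from 0.17 to 2.77 and MF(ALPHA)2 from -0.48 to 1.64, while MFA1 ran from -0.27 to 0.49 and MFA2 from -0.42 to 0.04. With the round of arrays as a fixed block, 0 genes were called at 37 °C or at 30 °C by limma, while the median was 0.868 and 0.673. RPS0A stood at 1.54 at 37 °C in that fit (limma adjusted p = 0.139). Each value is already a ratio of 2 strains, and most pairs of a round set a mutant against wild type. An offset of the round can therefore be told apart from the Dnpl3 effect mainly through the pairs of 2 mutants. The block fit thus cannot decide whether the count depends on the round. Within each round that held Dnpl3 at 37 °C the median over the 30 genes was above 0, at 0.997 (A), 1.18 (B), 0.942 (D) and 0.78 (F).

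The same comparison in other gene lists shows where the 30 genes lie. Of the other 10 small-subunit genes with 3 probes 9 rose, with a median of 0.767, and of 54 large-subunit genes 49 rose, with a median of 0.792. Of the 4 small-subunit genes with 4 probes 1 rose (median 0.323). Of 132 genes that do not encode ribosomal proteins 33 rose and 3 fell, with a median of 0.178. The rise was thus shared by the 3-probe ribosomal genes of both subunits and was not particular to the 30 genes. The lists were chosen with results of these data known, so no test was made between them.

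Read one by one, the 3 probes moved in different directions. In Dnpl3 cells at 37 °C for 30 min the second printed probe rose in 26 of the 30 genes and fell in 0 (40.9% of the second probes of the 230 genes called higher and 2.17% lower), and 24 of the 26 were above 0 in each pair. The first printed probe fell in 13 genes (23.5% called lower) and rose in 1, RPS24A (8.26% called higher). The third fell in 11 genes (21.7% called lower) and rose in 0 (2.17% called higher), and all 30 of its means were below 0. The contrast of most genes was therefore made of a rise in the second probe together with a smaller fall in the third.

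For RPS0A, the second probe was at 0.92, 1.23 and 2.41 in its lowest, median and highest pair, with a mean of 1.45. Its first probe ran from -1.92 to -0.17 (mean -0.61) and the third from -1.48 to -0.17 (mean -0.64), each below 0 in all 6 pairs. This gene thus moved in opposite directions at its probes, and all 3 changes passed the test. The second probe of RPS21B ran from 0.88 to 2.52 around 1.32, with the largest mean of the 30 genes, 1.55. Its first probe fell to a mean of -0.54, and the third averaged -0.22 and did not pass the test (limma adjusted p = 0.195). The second probes of RPS0B (1.47), RPS18B (1.42) and RPS10B (1.24) came next, followed by RPS24B (0.87). Among the genes that did not pass the test at the second probe were RPS30A (0.25), RPS4B (0.21) and RPS21A (0.15).

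At the first probe the largest fall was in RPS29B (YDL061C), for a small-subunit protein, with -1.51, -0.57 and -0.13 as its lowest, median and highest pair. All 6 pairs were below 0, and the mean was -0.71 (n = 6, limma adjusted p = 0.00103). The first probe also fell, among others, in RPS0A (-0.61), RPS21B (-0.54), RPS26B (-0.45), RPS21A (-0.42), RPS23B (-0.37), RPS0B (-0.36), RPS22B (-0.35), RPS16B (-0.35), RPS13 (-0.33) and RPS4A (-0.32). The exception was RPS24A, whose first probe ran from 0.08 to 0.92, above 0 in all 6 pairs, with a mean of 0.31. Replicate 2 weighed on this list: the median of the 30 first probes was -0.618 there and -0.347 to -0.0195 in the other pairs. Without replicate 2 the first probe fell in 6 genes, and without replicate 1 in 8.

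At the third probe the largest fall was in RPS22B (YLR367W), at -1.12, -0.76 and -0.41 in its lowest, median and highest pair, below 0 in all 6. Its mean was -0.74 (n = 6, limma adjusted p = 0.0143). The third probe also fell, among others, in RPS0A (-0.64), RPS24B (-0.51), RPS30B (-0.50), RPS10B (-0.49), RPS30A (-0.49), RPS8B (-0.46), RPS16B (-0.41), RPS10A (-0.34) and RPS24A (-0.30). RPS30A was the one of the 11 genes whose second probe did not pass the test.

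**Figure D2:**
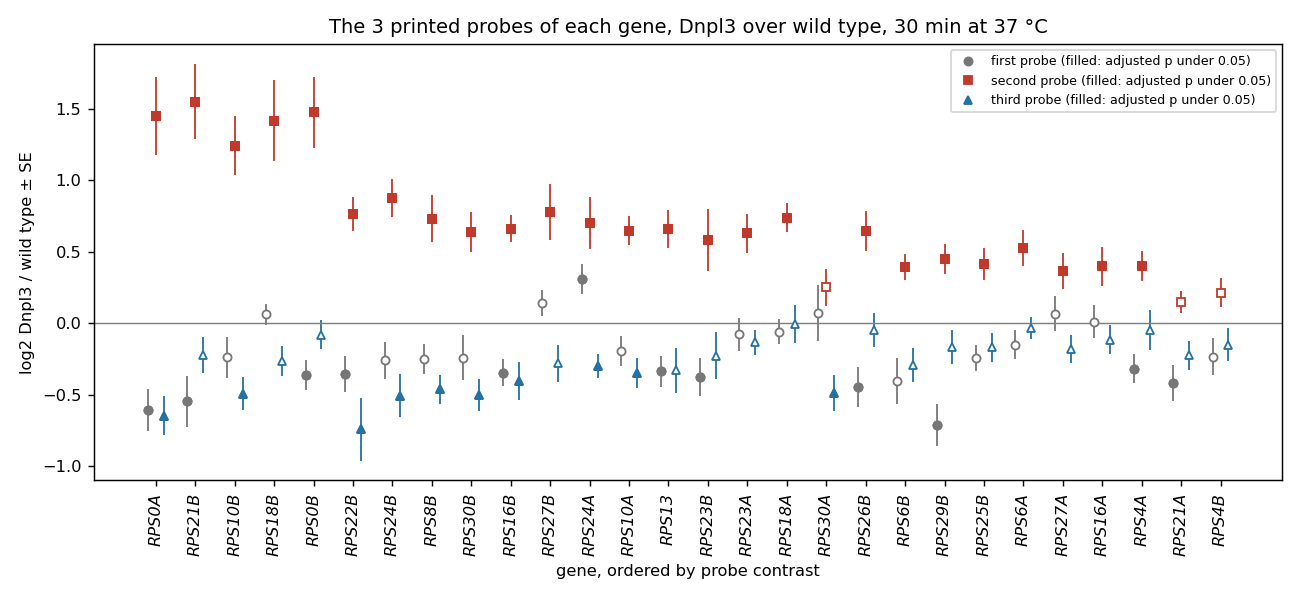
Log2 ratio of Dnpl3 over wild type at 37 °C for 30 min for the first, the second and the third printed probe of 28 of the 30 genes. Markers are limma means with their SE, filled where the adjusted p is under 0.05. The second probe lies above 0 in all 28 genes shown, between 0.15 in RPS21A and 1.55 in RPS21B, and the third below 0 in all 28.

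At 30 °C, without a shift, fewer genes passed the test when all 7 pairs were used as labelled. The means and calls at 30 °C come from the fit, where 9 pairs bear on this comparison. These are the 7 direct pairs and the pairs that set Dnpl3 against Dupf1 and against Dnpl3Dupf1. An n of 7 below counts the direct pairs only. Of the 30 genes 19 rose in Dnpl3 and 0 fell (25.7% of 230 genes called higher and 0% lower, limma), and the median was 0.511, against 0.218 over the 230 genes. By pair the median of the 30 genes was 0.655, 0.598, -0.858, 0.703, 0.944, 1.02 and 0.671. Replicate 3 was the only pair below 0, and in it 1 of the 30 genes, RPS18A, was above 0. Without replicate 3, 27 genes rose (47% of 230 genes) with a median of 0.767, and all 27 were above 0 in each of the other 6 pairs. With its sign turned, 28 rose (52.2%) and the median was 0.801. With replicate 3 kept as labelled, leaving out replicate 5 or 6 took the count of 19 to 10 and 9.

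RPS0A again had the largest contrast at 30 °C. Its pairs had -2.08, 1.52 and 2.79 as lowest, median and highest, with replicate 3 at the low end and all others above 1. Its fitted mean was 1.24 ± 0.32 as labelled (n = 7 direct pairs, limma adjusted p = 0.00602) and 1.74 without replicate 3. RPS18B ran from -1.95 to 2.47 around 1.44, with a mean of 1.14, and 1.61 without replicate 3. RPS10B ran from -0.69 to 2.69 around 0.97, with a mean of 1.08, and 1.35 without replicate 3. RPS21B ran from -2.11 to 2.298 around 1.28, with a mean of 1.07, and 1.55 without replicate 3. RPS0B ran from -1.81 to 2.13 around 1.06, with a mean of 1.03, and 1.46 without replicate 3. In all of these genes replicate 3 held the lowest value and lay below 0 while the other 6 pairs lay above 0, and limma called each mean (adjusted p between 0.00298 and 0.0137 as labelled).

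The genes with small contrasts at 37 °C were small at 30 °C as well. RPS4B ran from -0.29 to 0.30 around -0.05, with a mean of 0.02 (n = 7, limma adjusted p = 0.939). RPS21A ran from -0.34 to 0.44 around 0.21, with a mean of 0.18 (adjusted p = 0.221), and RPS4A from -0.13 to 0.77 around 0.29, with a mean of 0.29 (adjusted p = 0.157). Without replicate 3 these were the 3 genes that did not pass the test, and with its sign turned the 2 RPS4 copies did not. Over the 30 genes the mean contrast at 37 °C correlated with the plain mean of the direct pairs at 30 °C other than replicate 3 (r = 0.931 and rho = 0.884). This is a description across genes that share probes and partly share paralog signal.

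The single probes at 30 °C followed the same order. As labelled, the second printed probe rose in 13 genes (16.1% of the second probes of 230 genes), led by RPS0A (1.03), RPS0B (1.02), RPS18B (0.97), RPS21B (0.89), RPS27B (0.80) and RPS10B (0.75). The first fell in 1 gene (1.3% of first probes called lower) and the third only in RPS10A (-0.32, with 1.74% called lower). Without replicate 3, the second probe rose in 28 genes (37.8%), the first fell in 4 (8.26%) and the third fell in 9 (15.2%). As labelled, the 15 called probes of the 30 genes became 0 to 5 when any one of the 6 other pairs was left out. STE3 was at -0.21, 1.90, -1.35, 0.56, 0.36, 1.49 and 0.44 in the 7 pairs, so it was lowest in replicate 3 and highest in replicate 2.

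**Figure D3:**
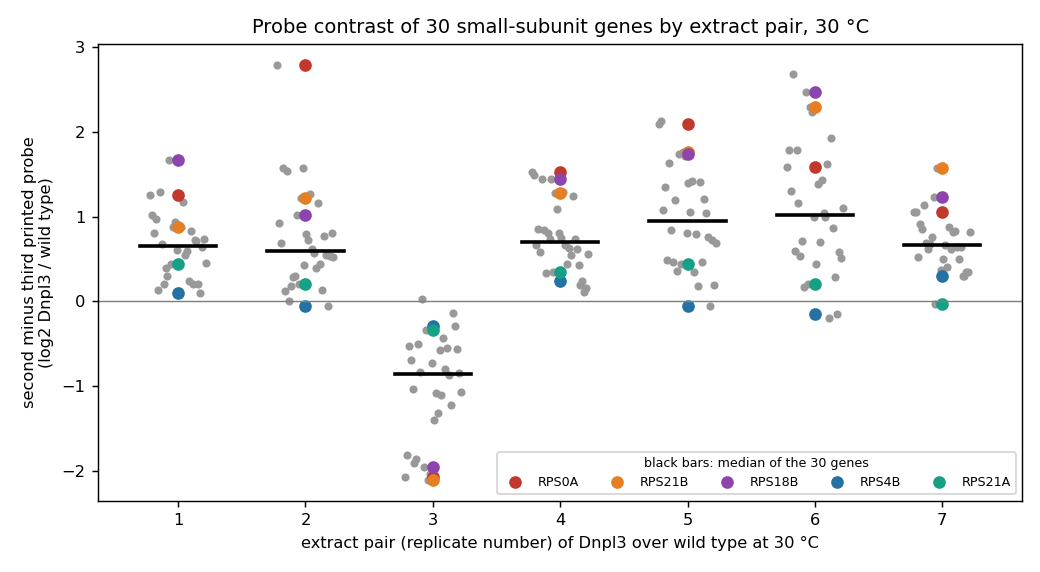
Probe contrast (difference of log2 ratios, Dnpl3 over wild type, 30 °C) of the 30 genes in each of the 7 extract pairs. Grey points are genes, coloured points the 5 named genes, and the horizontal bar is the median of the 30. Replicate 3 has a median of -0.858, and the 6 other pairs have medians between 0.598 and 1.02.

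Replicate 3 could be set beside other strain pairs of its own round. In round C at 30 °C, the Dnpl3Dupf1 strain was measured over wild type and Dnpl3 over Dnpl3Dupf1, and the sum of these log2 ratios is a value of Dnpl3 over wild type that does not use replicate 3. Its median over the 30 genes was 0.71, with 28 genes above 0, while replicate 3 had a median of -0.858 with 1 gene above 0. At 37 °C for 15 min the same sum from round D had a median of 0.614 with 29 genes above 0, and the measured pairs had 0.718 and 0.738. The values of round C thus did not close around replicate 3 as labelled.

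The shift to 37 °C for 30 min was compared with 30 °C in the same fit. All 30 differences of the contrast (37 °C minus 30 °C) were above 0, with a median of 0.338, but limma called 0 of them (0% of 230 genes), and 4 had an unadjusted p under 0.05. They ran from 0.05 in RPS25B to 0.86 ± 0.47 in RPS0A (limma adjusted p = 0.558). Without replicate 3 the median difference was 0.0924, and with its sign turned 0.0681. Within the rounds that held both temperatures the median difference was 0.386 in A and 0.527 in B, while round D gave 0.0839 and round F -0.0763, so it was not of one sign.

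The A and B copies of a gene did not always move by the same amount. At 37 °C for 30 min, the A minus B difference in probe contrast was called in 6 of the 12 pairs of copies, and in all 6 the A copy had the smaller contrast (37.2% of 43 ribosomal A and B pairs called in either direction, limma, adjusted over the 43). Among the 6 were RPS10, RPS16, RPS18, RPS21 and RPS27. The share of the 43 pairs called with the A copy lower is not given here. Since A and B of a pair were measured on the same arrays, the difference was taken within each extract pair.

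RPS21 had the largest difference. RPS21A stood at 0.85, -0.18, 0.29, 0.63, 0.19 and 0.47 in the 6 pairs, and RPS21B at 0.81, 1.94, 1.46, 1.75, 1.47 and 3.18. The copies did not differ in replicate 1, and in the other 5 pairs RPS21A was lower by over 1. The mean difference A minus B was -1.40 ± 0.33 (n = 6, limma adjusted p = 0.00235). It came from the second printed probe, where A minus B was -1.40 as well (limma adjusted p = 0.000497).

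RPS18 and RPS10 differed the same way. RPS10A ran from 0.74 to 1.36 and RPS10B from 0.83 to 2.77, with a difference between -1.92 and -0.09 and a mean of -0.74 ± 0.20 (n = 6, limma adjusted p = 0.00485). RPS18A ran from -0.43 to 1.43 and RPS18B from 1.26 to 2.18, with a difference between -2.61 and 0.02 and a mean of -0.94 ± 0.35 (n = 6, limma adjusted p = 0.0363). The difference of RPS10 was large in replicates 2 and 6 and under 0.5 in size in the other 4, and that of RPS18 was largest in replicate 6. When 1 extract pair at a time was left out, RPS18 lost its call in 4 of 7 fits (-1.13 to -0.60) and RPS10 in 0 of 7.

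The smaller called differences were -0.55 in RPS16 and -0.52 in RPS27. RPS0 was the pair that leaned the other way, with RPS0A minus RPS0B at 0.54 and above 0 in 5 of 6 pairs, without passing the test (limma adjusted p = 0.0642). RPS30 (-0.40), RPS24 (-0.38) and RPS6 (-0.13) did not pass it. The smallest differences were 0.09 in RPS4, between -0.45 and 0.58 over the pairs, and -0.05 in RPS23, between -0.82 and 1.21. In RPS4 both copies had small contrasts, whereas in RPS23 both were near 0.8.

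At the single probes, A minus B was above 0 at the first probe in RPS16 (0.36), RPS23 (0.30) and RPS24 (0.57), with 25.6% of the 43 pairs called. At the second probe the pairs called, each with the A copy lower, included RPS10 (-0.60), RPS21 (-1.40) and RPS30 (-0.39), with 32.6% called. At the third probe RPS0 (-0.56) was among the pairs called (23.3%). Without replicates 2 and 6, 0 of the 12 pairs were called by limma on the contrast. RPS21 then stood at -0.88 (limma adjusted p = 0.124), RPS18 at -0.76 (0.184) and RPS10 at -0.29 (0.241), and with the round of arrays as a block 0 of the 12 were called.

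At 30 °C the pairs of copies fell in a similar order. As labelled, 3 were called, among them RPS21 (-0.89, limma adjusted p = 0.0247) and RPS27 (-0.52), with 25.6% of the 43 pairs called. RPS18 (-0.74) and RPS10 (-0.42) both had an adjusted p of 0.0707. Without replicate 3, 5 were called (48.8% of 43), among them RPS21 (-1.30, limma adjusted p = 5.2e-05), RPS18 (-1.16), RPS27 (-0.66) and RPS10 (-0.51). As labelled, 0 were called when replicate 1, 2, 4, 5 or 6 was left out. For RPS21, RPS21A ran from -0.03 to 0.44 in these 6 pairs and RPS21B from 0.88 to 2.298, with no overlap. In replicate 3 the copies stood at -0.34 and -2.11, so its difference had the opposite sign. RPS0 differed at 30 °C in replicate 2 alone, by 1.87, with the other 6 pairs between -0.26 and 0.23.

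**Figure D4:**
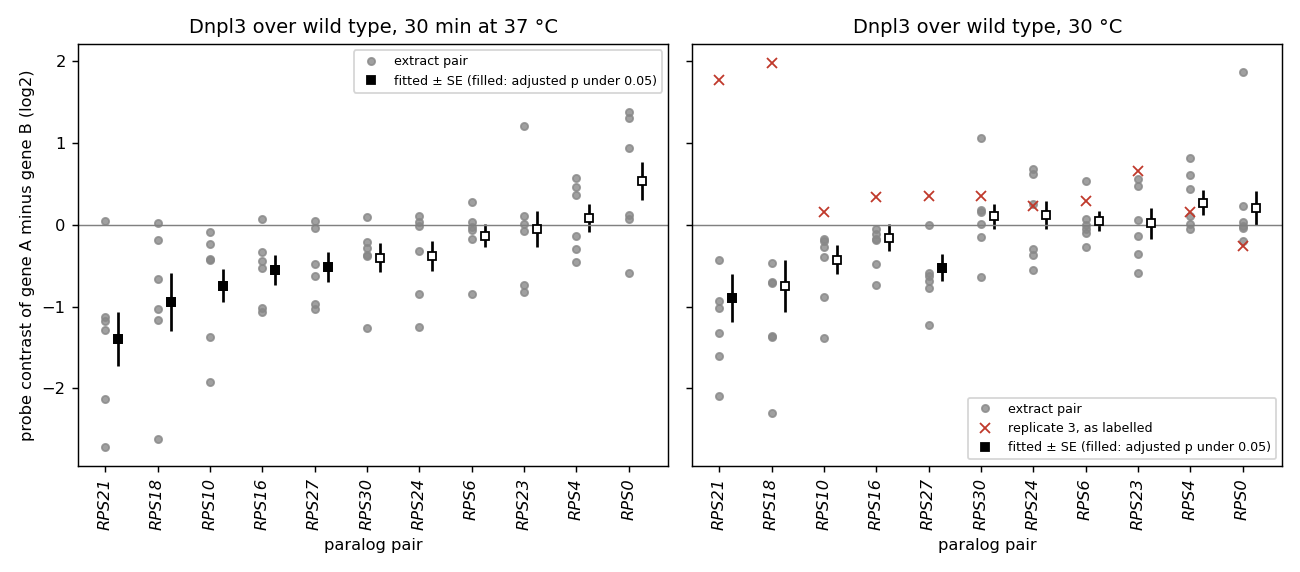
A minus B difference of the probe contrast (difference of log2 ratios) in 11 of the 12 pairs of copies for Dnpl3 over wild type at 37 °C for 30 min and at 30 °C. Grey points are extract pairs (red crosses mark replicate 3 at 30 °C), and squares the limma means with their SE, filled where the adjusted p is under 0.05. RPS21 is the lowest at 37 °C (-1.40), and RPS0 lies above 0 (0.54) without being called.

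Among the deletion strains, Dnpl3Dupf1 over wild type at 30 °C had the highest median contrast. There, 29 of the 30 genes rose (68.7% of 230 genes called higher, limma) and the median was 2.06, against 0.881 over the 230 genes. RPS21B was at 3.70 ± 0.57 (limma adjusted p = 4.51e-06), RPS0A at 3.47 ± 0.58, RPS10B at 3.38 ± 0.43 and RPS18B at 3.35, followed by RPS13 (3.08) and, among others, RPS0B (2.81). The smallest were RPS4B (0.79), RPS4A (0.77) and RPS27A (0.55), the last not called (limma adjusted p = 0.0826). These are estimates from 1 direct pair and from the strain pairs that link to it, with the spread taken from all groups.

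In the direct pair at 30 °C the first, the second and the third probe of RPS21B were at -0.80, 3.39 and -0.91, and those of RPS0A at -0.23, 2.83 and -1.07. The second probe thus carried most of the contrast in both genes. Over the 30 genes the second probe rose in 29 (58.7% called higher), the third fell in 13 (20.9% called lower) and the first fell in 1 (4.35% called lower). At 37 °C for 15 min 25 genes rose (40.9%), with a median of 1.52 and with RPS21B (3.13), RPS0A (2.79) and RPS0B (2.35) at the top. RPS27A (-0.12) was lowest there and was not called.

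The double deletion was also set against each single deletion. Over Dnpl3 at 30 °C, 25 of the 30 genes were higher (54.3% of 230 genes, limma), with a median of 1.51, led by RPS13 (2.65), RPS21B (2.63), RPS10B (2.297) and RPS0A (2.23). Among the 5 genes not called were RPS4A, RPS18A, RPS27A and RPS27B. Over Dnpl3 at 37 °C for 15 min, 2 genes were called, RPS29B (1.42, limma adjusted p = 0.00992) and RPS16A (1.18, limma adjusted p = 0.0218), with 4.35% called. Over Dupf1 at 30 °C, 19 were higher (25.7%), with a fitted median of 1.26 and with RPS21B (2.65) and RPS18B (2.55) at the top. The direct pair of these 2 strains had a lower median, 0.825, with 27 of 30 genes above 0. The fitted value also draws on the linked strain pairs, among them replicate 3 of Dnpl3 as labelled. Over Dupf1 at 37 °C for 15 min, where no pair was set up directly and the value is worked out through the other strains, 5 were higher (9.57%): RPS10A, RPS16A, RPS21B (2.76), RPS23B and RPS24B. These comparisons share strains and arrays with each other and with those over wild type.

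In Dupf1 alone, RPS13 (YDR064W) stood first. At 30 °C, where Dupf1 was never set directly against wild type and the value is worked out through the other strains, 3 genes rose: RPS13 (1.69, limma adjusted p = 0.0445), RPS23A (1.31, 0.0244) and RPS16A (1.05, 0.0415), with 6.96% of 230 genes called. Without replicate 3 of Dnpl3, 22 were called (33.5%), and with its sign turned 24 (36.1%). At 37 °C limma called 0 of the 30 genes at 15 min and 0 at 30 min, with 2 at an unadjusted p under 0.05 at each time (0.435% and 0.87% of 230 genes called). RPS13 was at 1.17 in the fit and 1.25 in its direct pair at 15 min, and at 1.46 at 30 min. RPS29B came second, at 0.74 and 1.18. The second probe of RPS13 was at 1.34 and 1.36 in the direct pairs, while its first was at 0.27 and 0.09 and the third at 0.09 and -0.10. RPS0A and RPS21B, the leading genes of Dnpl3, were at 0.34 and 0.54 in the direct Dupf1 pair at 15 min and at 0.27 and 0.38 at 30 min. The lead of RPS13 over the other genes was not tested.

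The Dupf1+Dnpl3 strain over Dnpl3 at 37 °C for 30 min gave positive contrasts in all 30 genes, with a median of 0.917, but limma called 0, and 7 had an unadjusted p under 0.05 (0.87% of 230 genes called). RPS10B (1.80) was highest and RPS22B (0.21) lowest. Dupf1 over Dnpl3 at 30 °C gave 0 called genes, with 3 at an unadjusted p under 0.05 (3.48% of 230 genes called), and a fitted median of 0.22, while its direct pair had a median of -0.207 with 13 of 30 genes above 0. The direct pair and the fit thus differed in sign, and the direct pair lies in round C with replicate 3.

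The copies differed most in the double deletion. A minus B in Dnpl3Dupf1 over wild type at 30 °C was called in 6 of the 12 pairs of copies (53.5% of 43), among them at -2.69 in RPS21 (limma adjusted p = 0.0011), -2.32 in RPS18, -1.40 in RPS10, -1.05 in RPS27 and -0.99 in RPS6. In the direct pair RPS21A was at 0.97 and RPS21B at 4.30, and RPS18A at 1.13 and RPS18B at 3.70. At 37 °C for 15 min 2 pairs were called (20.9%), RPS21 at -2.48 (limma adjusted p = 0.00344) being the larger difference. Over Dnpl3 at 30 °C the called pairs, with the A copy lower, included RPS21 (-1.80), RPS18 (-1.57), RPS6 (-1.04) and RPS10 (-0.98) with 23.3% called, and over Dupf1 at 30 °C those called included RPS18 (-2.20) and RPS21 (-2.16) with 11.6% called. In each of these comparisons every called pair of copies had the lower contrast in A. The counts over wild type, 6 and 2 of the 12, lay near the shares over the 43 pairs. Those shares are for either direction, so they do not show whether a lower A copy is usual among ribosomal pairs.

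Mating-type genes also moved with these comparisons. In the 4 pairs of Dupf1 or Dnpl3Dupf1 over wild type, STE3 was at -2.51 to -2.13, MF(ALPHA)1 at -5.96 to -3.04, MF(ALPHA)2 at -1.92 to -0.43, MFA1 at 0.81 to 1.74 and MFA2 at 2.74 to 3.90. The strains therefore differed from their wild type in the expression of these genes, which cannot be told apart from the deletion in those pairs. In the pair of Dnpl3Dupf1 over Dupf1 at 30 °C, both strains lack Upf1. There STE3 was at -0.12, MF(ALPHA)1 at -0.006, MF(ALPHA)2 at 0.07, MFA1 at -0.13 and MFA2 at -0.42. The median contrast of the 30 genes in that pair was 0.825, with 27 above 0, and RPS21B, RPS18B and RPS0A stood at 2.28, 2.02 and 1.46. The part of the mating-type genes in the contrasts over wild type was not tested.

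At 16 °C and at 37 °C for 15 and 45 min the median contrast in Dnpl3 was above 0. Each of these medians was below the 0.899 at 37 °C for 30 min, a difference that was not tested. Single genes did not all follow: RPS27A was at -0.167 at 15 min and RPS6B at -0.0944 at 45 min. At 16 °C for 30 min, with 1 pair, limma called 0 of the 30 genes and 1 had an unadjusted p under 0.05 (0.435% of 230 genes called). The median was 0.556, all 30 genes were above 0, and RPS24A (1.17), RPS0A (1.14) and RPS18B (1.04) were highest. At 37 °C for 15 min, with 2 direct pairs, 4 rose (10% of 230 genes): RPS21B (1.63, limma adjusted p = 0.0383), RPS0B (1.28), RPS10A (0.95, limma adjusted p = 0.0168) and RPS16B (0.94). RPS21B stood at 1.72 and 1.46 in the direct pairs and RPS21A at -0.07 and 0.24, and their difference was the only one called among the 12 pairs of copies (-1.54, with 14% of 43 called). Without either direct pair 0 genes were called at 15 min, and without replicate 3 of Dnpl3 at 30 °C 14 were (27.8% of 230 genes). At 45 min, with 1 pair, 0 were called by limma and 0 had an unadjusted p under 0.05 (0% of 230 genes called), with a median of 0.501. The 2 dye-swapped arrays of that pair ran against each other (r = -0.319 over probes). Their medians over the 30 genes were 1.03 and -0.0964, and NPL3 was at -1.26 and 0.005, so the averaged values at 45 min are uncertain. RPS0A was at 1.04 and 1.60 at 15 min, between 1.09 and 3.34 at 30 min and at 0.55 at 45 min. With 1 or 2 pairs at 15 and 45 min, this order over time was not tested. STE3 was at 0.68 and 1.88 at 15 min and 0.92 at 45 min, and at -0.17 at 16 °C.

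Strains without Gbp2, Hrb1 or both showed no called change in the probe contrast of these genes. Limma called 0 of 30 in each of the 6 comparisons, and an unadjusted p under 0.05 was reached by 1 gene in Dgbp2 at 30 °C, 1 in Dgbp2 at 37 °C, 1 in Dhrb1 at 30 °C and 0 in the other 3. Of the 230 genes, 0.435% were called in Dhrb1 at 30 °C and 0% in the other 5 comparisons. The medians of the 30 genes were 0.174 and 0.0294 in Dgbp2 at 30 and 37 °C, -0.121 and 0.0165 in Dhrb1, and 0.0735 and 0.0416 in Dgbp2Dhrb1. The widest spread was in Dgbp2 at 30 °C, between -0.996 in RPS13 and 0.77 in RPS30A, from 1 pair. Of the single probes of the 30 genes limma called 0 in each of the 6 comparisons, but in Dgbp2 at 30 °C the first probe reached an unadjusted p under 0.05 in 9 genes below 0 and 1 above, among them RPS0A at -1.25 and RPS24B at -1.11 (limma adjusted p = 0.114 and 0.105). In that 1 pair, A minus B at the first probe was called in 4 of the 12 pairs of copies (14% of 43 called), at -1.496 in RPS0 (limma adjusted p = 0.00402), 1.02 in RPS4, 1.06 in RPS24 and -0.70 in RPS18. In the other 5 comparisons 0 of the 12 were called at the first probe, with 3 at an unadjusted p under 0.05 in Dgbp2 at 37 °C and 0 in the other 4. With 1 or 2 pairs per group, differences below the spread between pairs would not have been detected. The ratios of GBP2 and HRB1 themselves in these pairs are not given here. The dye-swapped arrays ran against each other (r below 0 over probes) in each Dhrb1 pair, at -0.22 at 30 °C and at -0.165 and -0.359 at 37 °C. They did so as well in replicate 2 of Dgbp2 at 37 °C (-0.313) and in replicate 1 of Dgbp2Dhrb1 at 30 and 37 °C (-0.278 and -0.292). In the remaining pairs of these strains r was 0.268 to 0.514. Over the 10 pairs of these strains STE3 ran from -3.73 to -0.08 and MF(ALPHA)1 from -5.83 to 0.114. MF(ALPHA)2 ran from -1.68 to -0.00716, MFA1 from -0.0829 to 3.03 and MFA2 from -0.25 to 3.39. Replicates with the same label differed: in Dgbp2Dhrb1 at 30 °C STE3 was at -0.0849 in replicate 1 and -3.73 in replicate 2. At 37 °C it was at -0.113 and -2.97. The part of these mating-type genes in the contrasts was not tested.

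**Figure D5:**
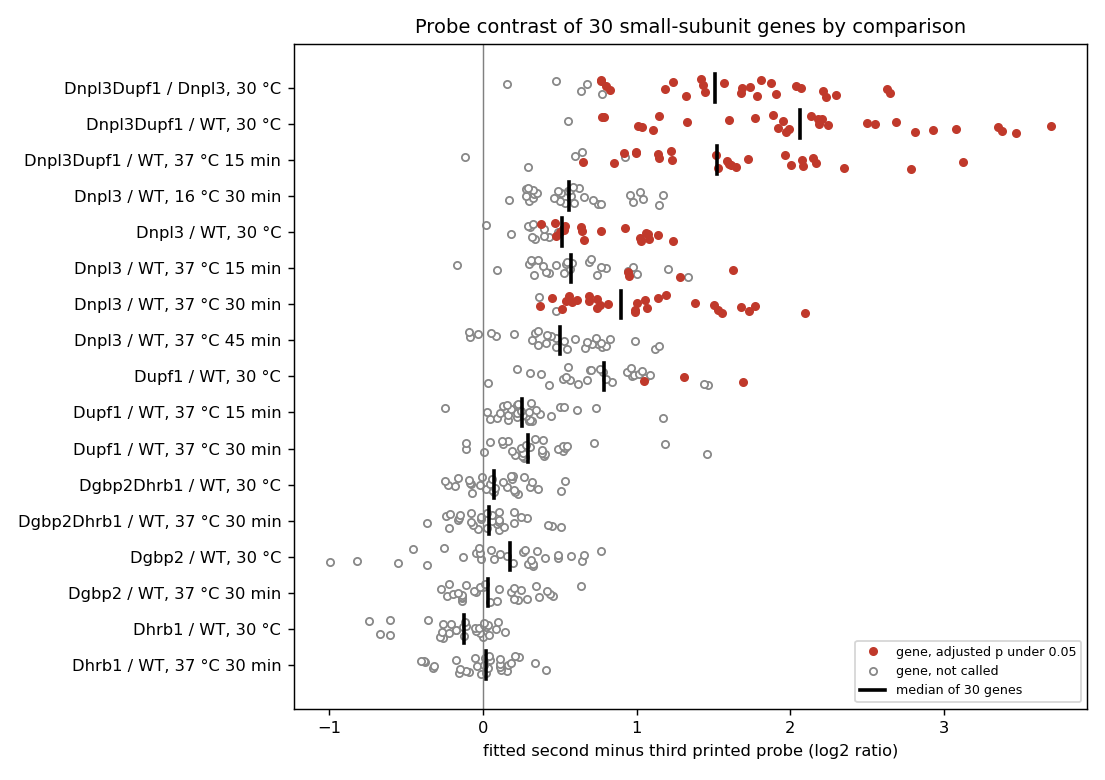
Probe contrast (limma means, difference of log2 ratios) of the 30 genes in each comparison, with red points for called genes, open points for the others and a black line at the median of the 30. The medians shown are highest in Dnpl3Dupf1 over wild type at 30 °C (2.06) and near 0 in the Dgbp2, Dhrb1 and Dgbp2Dhrb1 strains.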

How the data were processed

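Values are the log2 ratios that the authors deposited for 75 arrays of 9216 spots (1536 probes, each printed 6 times). That they are log2, and of the first named strain over the second in both dye orientations, was taken from the values and from the deleted genes. Scanner intensities, background correction and normalization are not given here, so the signal behind a ratio is unknown. Array medians lay between -0.0298 and 0.0328, and 0.184% to 35.384% of spots lacked a value. Gene names came from the platform's probe table.

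The spots of a probe were averaged, then the dye-swapped arrays of an extract pair. The 37 pairs were fitted together with limma 3.58.1 in R 4.3.3 (17 coefficients, 20 residual degrees of freedom), so that all groups share 1 estimate of the spread. A feature needed a value in at least 50% of the pairs, and p-values were adjusted by Benjamini and Hochberg over all probes, over 230 probe contrasts or over 43 pairs of copies. The fit was tested on simulated data, and figures were drawn with Python 3.11.15 and matplotlib 3.10.9. In the 2 conditions with most pairs, all pairs are described for the 6 genes with the largest contrast, the 3 with the smallest, the 4 called pairs of copies with the largest difference and the 2 with the smallest. 1 pair of copies enters the counts and medians and is not reported by name here. The genes and lists were chosen with earlier results of these data known. Alternatives were other spot filters and summaries, 1 dye only, the array round as a block, only a group's own pairs, and leaving out each pair. No sequences or coordinates were used here.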

Additional observations from a re-analysis of the deposited data

Results flagged for a closer look

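Within the 6 pairs of Dnpl3 over wild type at 37 °C for 30 min and the 7 pairs at 30 °C, 40 values per condition were looked at for 1 pair far from the rest, by Dixon's ratio above its critical value (0.625 for 6 pairs and 0.568 for 7). Chance alone marks about 1 in 20. At 37 °C 3 values were marked. RPS27B stood at 2.401 in replicate 6, against 0.346 to 1.10 in the other pairs, RPS6A at 1.042 in replicate 2, against 0.318 to 0.566, and RPS30 (A minus B) at -1.263 in replicate 6, against -0.381 to 0.095.

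At 30 °C 20 values were marked, 19 of them through replicate 3. Of these 19, the first is the median of the 30 genes, which was -0.8583 in that pair, against 0.598 to 1.02 in the others. Among the duplicated genes the contrast in replicate 3 was -2.075 in RPS0A, -1.813 in RPS0B, -0.5269 in RPS10A, -0.4957 in RPS16A, -1.949 in RPS18B, -2.106 in RPS21B and -0.7276 in RPS23A. It was -1.078 in RPS24A, -1.311 in RPS24B, -0.7934 in RPS27B, -1.223 in RPS30B and -0.847 in RPS6B. Among the genes without a second copy in the set it was -1.858 in RPS13, -2.039 in RPS22B, -1.098 in RPS26B and -1.062 in RPS8B. In each of these 16 genes the other 6 pairs lay above 0. A minus B was 1.979 in RPS18 and 1.769 in RPS21 in replicate 3, and below 0 in the 6 others. The remaining value was RPS0 (A minus B) in replicate 2, at 1.868, against -0.263 to 0.231 in the other pairs.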

How the results depend on the processing

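Subtracting array medians, taking the median of spots, asking for at least 3 spots or a value in each pair, or dropping the filter on missing values moved no count by more than 1.5 times. Of the values of the named genes and pairs of copies under all alternatives, 414 kept direction and call, 53 lost the call, 16 gained it and 15 changed sign. Arrays with the first strain in Cy5 alone called 2 pairs of copies at 37 °C for 30 min and 0 at 30 °C, and those in Cy3 alone 3 at 37 °C, against 6 and 3 with both dyes. Turning replicate 3 at 30 °C called 44 single probes (15 as labelled) and 5 pairs of copies at 30 °C, 14 genes at 37 °C for 15 min (4) and 1 at 16 °C or 45 min (0). With the array round as a block, 0 contrasts, 0 single probes and 0 pairs of copies were called at 37 °C for 30 min and 0, 0 and 0 at 30 °C, 0 at 37 °C for 15 min, and 70 over the Dupf1 and Dnpl3Dupf1 comparisons (108 as reported). In that fit Dupf1 at 37 °C for 30 min and Dupf1+Dnpl3 over Dnpl3 could not be estimated. As stated above, it tells the offset of a round from a strain's effect mainly through the pairs of 2 mutants. With only a group's own pairs, 0 contrasts, 0 single probes and 0 pairs of copies were called at 30 °C, 29 single probes (51) and 3 pairs of copies at 37 °C for 30 min, and 18 genes at 37 °C for 15 min. Leaving out replicate 3 as well, chosen after seeing the data, gave 29, 44 and 5 at 30 °C. Without replicates 2 and 6, also chosen after seeing the data, 26 single probes and 0 pairs of copies were called at 37 °C for 30 min. The first probe alone called 3 pairs of copies at 37 °C, with the A copy higher where the contrast had it lower, and 0 at 30 °C, and the third alone 2 and 0. The causes were not tested.

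Leaving out 1 extract pair at a time gave 26 to 30 called contrasts, 40 to 53 single probes and 4 to 7 pairs of copies at 37 °C for 30 min. At 30 °C it gave 9 to 27, 0 to 41 and 0 to 5. It gave 0 to 14 at 37 °C for 15 min, 0 to 1 over the Dgbp2 and Dhrb1 comparisons, 80 to 157 over the Dupf1 and Dnpl3Dupf1 comparisons, and 0 throughout for 16 °C, 45 min and 37 °C minus 30 °C. The values that changed sign were small. RPS4B at 30 °C (0.02) was at -0.144 with Cy5 alone and at -0.0191 to 0.06995 without 1 pair. RPS23 at 37 °C (-0.05) was at 0.405 with Cy3 alone, 0.317 without replicates 2 and 6 and -0.3003 to 0.107 without 1 pair. RPS23 at 30 °C (0.02) was at -0.0178 with Cy3 alone, -0.157 with replicate 3 turned, -0.166 with the round as a block and -0.0797 to 0.11 without 1 pair. RPS4 at 37 °C (0.09) was at -0.0772 without replicates 2 and 6 and -0.012 to 0.194 without 1 pair. No paired analysis was possible because replicate numbers only follow the order of the samples and name no shared culture. The round, above, was the block tried in its place, and with it 0 differences between 37 and 30 °C were called, with a median of 0.201. The number of extract pairs, 1 or 2 in most groups, limits the precision.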

Other observations

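The 27 ribosomal protein genes with 1 probe gave a single log2 ratio each. In Dnpl3 over wild type at 37 °C for 30 min, 3 of them rose and 5 fell, with a median of -0.104. The medians of the 30 genes were -0.253, 0.645 and -0.244 at the first, the second and the third printed probe. Which of these the single probes correspond to is not known, so no conclusion was drawn from the comparison.

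The excess of Dnpl3Dupf1 over the sum of both single deletions was computed after the values were seen. Limma called 0 of the 30 contrasts at 30 °C and 0 at 37 °C for 15 min, and 7 and 1 reached an unadjusted p under 0.05. Of the 230 genes 0 were called at either temperature, and 27 and 5 were higher at an unadjusted p under 0.05. The medians of the 30 were 0.719 and 0.423, against 0.276 and 0.225 over the 230 genes. At 30 °C the sum takes in Dupf1 over wild type, which had 0 direct pairs, and Dnpl3 over wild type with replicate 3 as labelled. The median without replicate 3 is not given here, so no conclusion was drawn from the excess at 30 °C.

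The arrays that set the splicing mutant prp2-1 against prp5-1 and against prp8-1, 1 array each at 37 °C for 30 min, allow no test. Against prp5-1 the median contrast of the 30 genes was 0.715, with 22 above 0 and values between -1.81 in RPS13 and 5.14 in RPS30A. Against prp8-1 it was 0.791, with 29 above 0 and values between -0.0113 in RPS13 and 4.03 in RPS30A. Over the 230 genes the medians were 0.373 and 0.368. RPS13 was lowest and RPS30A highest on both arrays, which share the prp2-1 strain.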
